A study of Homo sapiens with 8 samples.

Results

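The 10 genes described here are HOXA5, HOXA7, HOXA9, HOXA10, MEIS1, PBX3, PICALM, MLLT10, DOT1L and BMI1, chosen by name out of 22653 entries listed over 8 RNA-seq libraries of U937 cells. U937 is a human monocytic line that carries a fusion of PICALM to MLLT10 (also called CALM-AF10). Entrez numbers were matched to symbols, and all 10 genes were listed in all 8 libraries and passed the filter on low counts.

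All libraries came from U937 cells with a knockout of SLC19A1, the reduced folate carrier. Into these cells a tet-controlled, Flag-tagged SLC7A2 or SLC7A1 had been placed, each a transporter of cationic amino acids. The 4 groups were the SLC7A2 line with 1 µg/mL doxycycline (dox) for 24 h, the SLC7A2 line without dox, the SLC7A1 line with dox and the SLC7A1 line without dox, with 2 libraries in each. By its title the series is about SLC7A1 and cGAMP signalling in T cells, and these lines bear on what raising either transporter does in a monocytic cell. No cells without a construct received dox, so an effect of the drug and an effect of a transporter cannot be told apart when both lines share it. Each construct is represented by a single line, so the construct and any other difference between the lines cannot be told apart either. The labels do not say that the libraries of a group came from separate cultures, and the p-values measure only the spread between these libraries, which may be technical.

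Total expected counts, the read numbers that RSEM estimates per gene, were 17309132 to 18441833 per library. The tagged SLC7A2 had 264 and 4947 CPM (counts relative to the library total) in its dox libraries, against 0.563 and 9.65 CPM in its no-dox libraries. The tagged SLC7A1 had 845 and 367 CPM in its dox libraries, against 0.264 and 0 CPM in its no-dox libraries. Each was thus induced unequally in the libraries of its group. SLC19A1 had 120 to 163 CPM in all 8 libraries, with no cells that kept the gene to compare, so RNA does not check the knockout. Of the 12 markers fixed for U937 and monocytic cells, ITGB2 (313.22 to 408.67 TPM), SPI1 (139.29 to 173.97 TPM) and CD33 (81.08 to 94.25 TPM) were high, while CSF1R, CD14 and MPO stayed under 1 TPM (a transcript's share of the library, corrected for gene length). The summed TPM of the markers was at most 0.27 for T cells and 0.23 for erythroid cells. The B cell markers came to 21.4 to 34.5 TPM, nearly all from CD79A. The fibroblast markers came to 14.7 TPM in the SLC7A2-line no-dox library numbered 2, against 0.64 to 2.01 TPM in the other 7, and their part in the results was not tested.

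The HOXA genes encode homeodomain transcription factors that are high in early blood progenitors and are normally shut down as myeloid cells mature. MEIS1 and PBX3 are homeodomain cofactors of the TALE class that bind DNA together with HOXA proteins, and this trio is kept high in several leukaemias. MLLT10 (AF10) is a partner of DOT1L, the methyltransferase of histone H3 lysine 79, and the PICALM-MLLT10 fusion is known to hold HOXA genes and MEIS1 active through DOT1L. BMI1 is a subunit of Polycomb repressive complex 1 that sustains stem cell self-renewal and represses CDKN2A, and it has been reported to be raised in leukaemias with this fusion.

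On build GRCh38.p14 the 4 HOXA genes lie in 1 cluster on chromosome 7, HOXA5 at 27141052 to 27143681, HOXA7 at 27153716 to 27156675, HOXA9 at 27162438 to 27165537 and HOXA10 at 27170605 to 27179861. MEIS1 lies on chromosome 2 at 66435125 to 66573869, PBX3 on chromosome 9 at 125747373 to 125967377 and DOT1L on chromosome 19 at 2163933 to 2232578. PICALM lies on chromosome 11 at 85957175 to 86069860, and its fusion partner MLLT10 on chromosome 10 at 21533756 to 21743630. BMI1 follows on the same chromosome at 22321099 to 22331706. The 250 bases before the start of HOXA9, of HOXA10 and of MEIS1 are shown as examples of the windows counted below. They are from RefSeq, 5′ to 3′ on the strand of the gene, with the letters CCAAT (or ATTGG on the other strand) and TATAAA (or TTTATA) in capitals. The HOXA9 window is chr7:27165538-27165787 on the minus strand, the HOXA10 window is chr7:27174321-27174570 on the minus strand, before the coding transcript that the files list, and the MEIS1 window is chr2:66434875-66435124 on the plus strand.
HOXA9: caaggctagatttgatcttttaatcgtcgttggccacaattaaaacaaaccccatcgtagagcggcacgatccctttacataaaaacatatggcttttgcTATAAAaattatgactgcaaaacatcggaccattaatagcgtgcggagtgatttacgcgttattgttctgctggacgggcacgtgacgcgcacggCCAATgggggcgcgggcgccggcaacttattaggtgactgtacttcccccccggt
HOXA10: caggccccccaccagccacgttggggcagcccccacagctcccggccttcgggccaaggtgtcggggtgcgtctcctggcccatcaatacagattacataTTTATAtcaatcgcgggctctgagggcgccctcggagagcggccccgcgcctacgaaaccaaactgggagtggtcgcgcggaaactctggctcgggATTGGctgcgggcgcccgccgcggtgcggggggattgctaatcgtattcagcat
MEIS1: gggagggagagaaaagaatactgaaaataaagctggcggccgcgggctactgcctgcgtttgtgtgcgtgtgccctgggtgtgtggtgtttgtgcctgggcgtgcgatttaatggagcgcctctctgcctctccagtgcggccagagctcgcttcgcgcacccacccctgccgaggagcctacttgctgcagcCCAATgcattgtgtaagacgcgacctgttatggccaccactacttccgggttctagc

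Windows of this length were found for 8 of the 10 genes, all but HOXA5 and DOT1L, with 12 windows in all. CCAAT was in 7 of the 12 windows (58.3%), those of HOXA7, HOXA9, HOXA10, MEIS1, PICALM and MLLT10, against 32.0% of all 35116 windows of the same length. TATAAA was in 3 windows (25.0%), all of HOXA9 or HOXA10, against 10.7% of all windows. TGACAG, the letters of the MEIS half-site, were in 2 windows (16.7%), of PBX3 and BMI1, against 13.0%. TGATTNAT, the letters of a joint HOX-PBX site, were in 0 of the 12 windows and in 2.48% of all. Both strands were searched for each motif, each motif was counted whether or not it overlapped another, and a match is a description of the letters alone. The median GC content was 68.0% in the 12 windows and 58.0% in all windows, with 25.5 and 11 CG dinucleotides.

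On TPM the order of the 10 genes by their median over 8 libraries was BMI1 (45.9), HOXA10 (34.2), MEIS1 (26.1), DOT1L (19.4), PICALM (12.4), HOXA9 (7.59), MLLT10 (7.06), PBX3 (3.80), HOXA7 (1.58) and HOXA5 (1.43). The ranges of neighbours in this order overlapped, except that MLLT10 (5.36 to 10.04 TPM) lay above PBX3 (2.43 to 4.97 TPM) in every library. Their estimated counts overlapped, with 91.19 to 184.81 for MLLT10 and 99.07 to 181.51 for PBX3. The separation thus rests on the deposited gene lengths, 1323 to 1812 bases for MLLT10 and 2769 to 2810 bases for PBX3. The estimated counts per library were 1056 to 5635 for BMI1 and 1043 to 1555 for HOXA10, but 11.75 to 40.76 for HOXA5 and 33.52 to 66.21 for HOXA7. The SLC7A2-line dox library numbered 2, the one with 4947 CPM of the construct, had the highest TPM of 7 of the 10 genes, but also of 36.6% of all 17503 entries tested. On CPM scaled by TMM, which corrects for the composition of a library, it was the highest for 3 of the 10 and for 22.1% of all entries. Its part in the results was not tested, beyond the values without it.

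**Figure D1:**
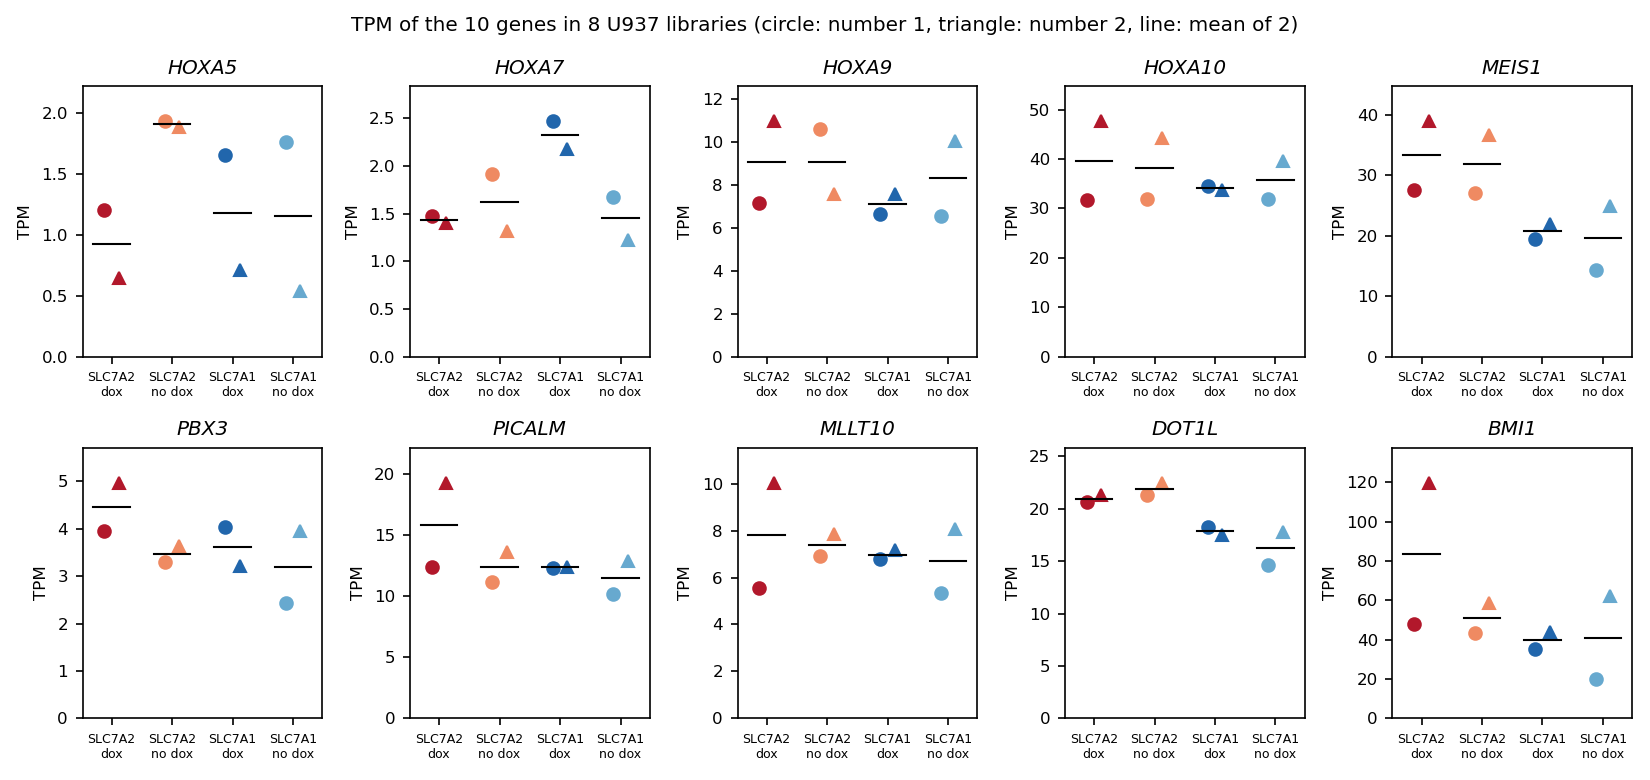
TPM of the 10 genes (vertical axes, each from 0) in the 4 groups, with circles for libraries numbered 1, triangles for libraries numbered 2 and a line at the mean of 2. MEIS1 is at 27.18 to 38.96 TPM in the SLC7A2 line, against 14.43 to 25.02 TPM in the SLC7A1 line, and BMI1 reaches 119.73 TPM in 1 library.

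HOXA5 and HOXA7, members of the middle of the cluster, were scarce. HOXA5 had 1.20 and 0.65 TPM in the SLC7A2 line with dox, 1.93 and 1.88 TPM without, 1.65 and 0.71 TPM in the SLC7A1 line under dox, and 1.76 and 0.54 TPM there without. HOXA7 had 1.48 and 1.40 TPM in the SLC7A2 line with dox, 1.92 and 1.32 TPM without, 2.47 and 2.18 TPM in the SLC7A1 line under dox, and 1.68 and 1.23 TPM there without. For both genes the libraries of the 2 lines overlapped, and so did those with and without dox. HOXA5 overlaps HOXA3 in the annotation, and whether counting used strand is not stated in the labels, so how reads were divided between these genes is uncertain.

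HOXA9, the family member most often tied to acute myeloid leukaemia, was expressed at a modest level. HOXA9 had 7.15 and 10.98 TPM in the SLC7A2 line with dox, 10.62 and 7.57 TPM without, 6.67 and 7.60 TPM in the SLC7A1 line under dox, and 6.57 and 10.08 TPM there without. The highest and the lowest of these 8 values were 1.67 times apart, and high and low libraries occurred in both lines. HOXA10, which like HOXA9 acts with MEIS1 in progenitors, was several times as abundant. It had 31.76 and 47.61 TPM in the SLC7A2 line with dox, 31.99 and 44.20 TPM without, 34.63 and 33.82 TPM in the SLC7A1 line under dox, and 31.87 and 39.65 TPM there without. Both SLC7A2-line libraries numbered 2 were the highest, and the other 6 lay between 31.76 and 39.65 TPM. Per length, HOXA10 was 3.01 to 5.84 times HOXA9 in a library, with a median of 4.45. Both genes overlap the read-through gene HOXA10-HOXA9 in the annotation. That gene was not listed, so how any reads from it were divided between HOXA9 and HOXA10 is uncertain.

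Over the whole HOXA cluster, the summed level was 76.2 to 108 TPM. HOXA10 made up 35.0% to 44.6% of this sum, HOXA11 31.0% to 35.9%, HOXA9 7.64% to 11.6% and HOXA13 6.04% to 9.90%. The level was therefore highest at HOXA10 and HOXA11 and lower on either side, and HOXA6 was listed in only 2 libraries. HOXA11 and HOXA13 are best known from limb and urogenital development. The HOXC genes summed to 9.36 to 17.1 TPM, led by HOXC10 (2.81 to 10.24 TPM), HOXC6 (3.34 to 5.25 TPM) and HOXC5 (0.55 to 1.62 TPM). All HOXB and HOXD genes together came to 0.17 to 0.60 TPM. The noncoding genes of the region, among them HOTTIP and HOXA10-AS, were not analysed here, since the files list 10 lncRNA genes beside 15300 protein-coding ones.

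**Figure D2:**
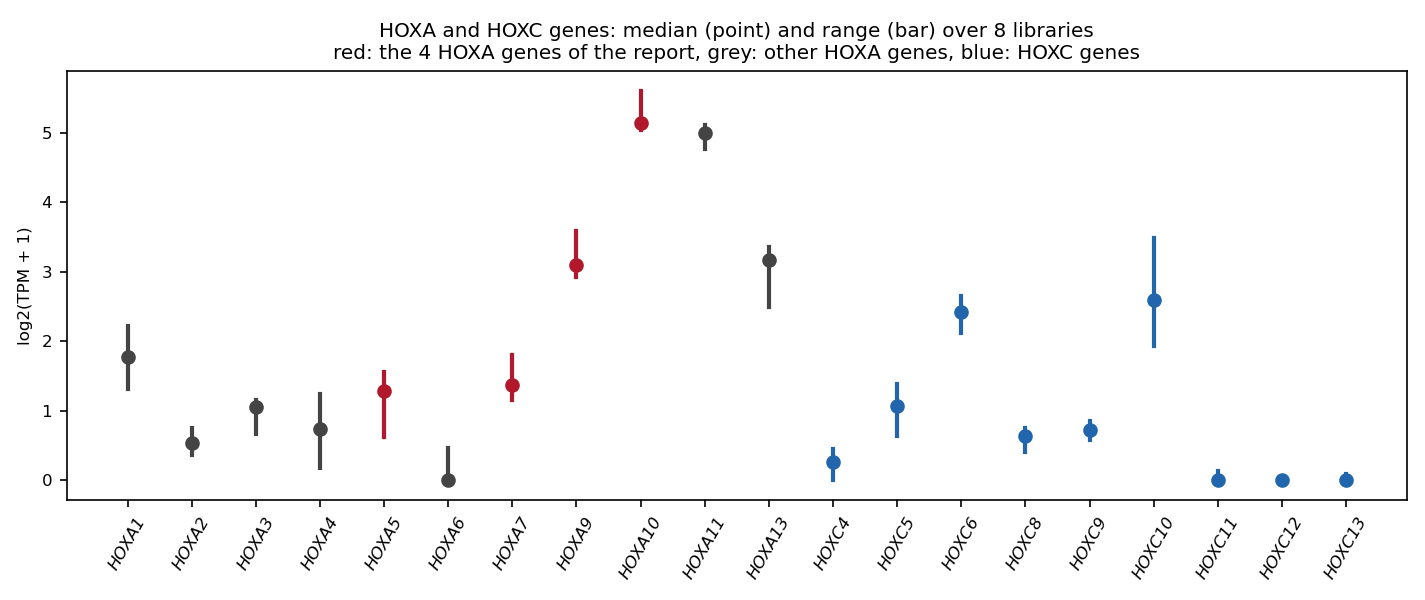
Median (point) and range (bar) of log2(TPM + 1) over 8 libraries for HOXA genes (red for HOXA5, HOXA7, HOXA9 and HOXA10, grey for the others) and HOXC genes (blue), in chromosomal order. HOXA10 and HOXA11 stand highest, at 31.76 to 47.61 and 26.11 to 33.69 TPM.

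MEIS1 had the line difference farthest from 0 relative to its SE, although it did not pass the test with line and dox alone. MEIS1 had 27.66 and 38.96 TPM in the SLC7A2 line with dox, 27.18 and 36.65 TPM without, 19.50 and 21.98 TPM in the SLC7A1 line under dox, and 14.43 and 25.02 TPM there without. All 4 libraries of the SLC7A2 line were above all 4 of the SLC7A1 line, with or without dox. In RNA of whole cultures, fewer cells expressing a gene and less of its RNA per cell cannot be told apart. The means were 32.6 ± 6.07 TPM in the SLC7A2 line and 20.2 ± 4.48 TPM in the SLC7A1 line (SD, n = 4 each). Same-numbered libraries of a line deviated together over well-expressed entries (r = 0.771 in the SLC7A2 line and 0.698 in the SLC7A1 line). The 4 libraries of a line may thus not be independent, and the p-values for the lines treat them as if they were. In edgeR the log2 fold change of the SLC7A2 over the SLC7A1 line was 0.55 ± 0.16 (SE), with an unadjusted p of 0.0088 and an adjusted p of 0.321, with the threshold at 0.05. On log2 CPM, from here on scaled by TMM, the difference was 0.63 between the libraries numbered 1 and 0.49 between those numbered 2. With any 1 library left out the log2 fold change was 0.42 to 0.68 in edgeR, with adjusted p of 0.218 to 0.77. Without both SLC7A2-line libraries numbered 2 it was 0.38 ± 0.19. In edgeR with an added term for library number, shared by both lines, it was 0.56 ± 0.09 with an adjusted p of 0.0391. With that term 1.46% of all entries were called. It rests on a number effect shared by the lines, although same-numbered libraries of different lines deviated together less (r = 0.036 to 0.424 over well-expressed entries). The labels do not say what a number marks, so that fit was kept as an alternative only.

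MEIS1 was the only member whose CPM did not overlap between the lines, 1 of 10. Of all 17503 entries tested, 4.35% did not overlap and were higher in the SLC7A2 line, as MEIS1 was. A further 5.11% did not overlap and were lower, as no member was. PBX3, the third component of the trio, had 3.95 and 4.97 TPM in the SLC7A2 line with dox, 3.30 and 3.64 TPM without, 4.03 and 3.21 TPM in the SLC7A1 line under dox, and 2.43 and 3.96 TPM there without. Its highest value was in the SLC7A2 line with dox and its lowest in the SLC7A1 line without, but all 4 groups overlapped at least 1 other.

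PICALM encodes a clathrin assembly protein and gives the 5′ part of the fusion, while MLLT10 gives the 3′ part. Counts were per gene, so transcripts of the fusion and of the normal alleles cannot be told apart, and no value here is a level of the fusion. PICALM had 12.36 and 19.29 TPM in the SLC7A2 line with dox, 11.18 and 13.65 TPM without, 12.31 and 12.43 TPM in the SLC7A1 line under dox, and 10.16 and 12.87 TPM there without. Of these 8 values, 19.29 TPM stood alone and the other 7 lay between 10.16 and 13.65 TPM. MLLT10 had 5.55 and 10.04 TPM in the SLC7A2 line with dox, 6.94 and 7.85 TPM without, 6.79 and 7.17 TPM in the SLC7A1 line under dox, and 5.36 and 8.06 TPM there without. The SLC7A2-line dox library numbered 2 had the highest TPM of both genes. The ratio of PICALM to MLLT10 TPM was 1.60 to 2.23, with a median of 1.78.

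The deposited gene length of MLLT10, which differed between libraries as an isoform-weighted mean would, was 1323 to 1812 bases. In GENCODE, the transcripts matching the RefSeq accessions that the files give for MLLT10 include short ones of 905 and 1136 bases, which end at 21557025 and 21557182 on chromosome 10. The full-length ones have 4850 and 5126 bases and end at 21743626 and 21743630. The deposited length lay between the short and the full-length forms, nearer to the short ones in all 8 libraries, and the TPM of MLLT10 rests on it. The files also give predicted accessions whose lengths were not analysed here. The length of PICALM was 3594 to 3694 bases, where its longest matched transcript has 3613 bases.

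DOT1L was the steadiest member. DOT1L had 20.61 and 21.33 TPM in the SLC7A2 line with dox, 21.27 and 22.48 TPM without, 18.24 and 17.48 TPM in the SLC7A1 line under dox, and 14.65 and 17.79 TPM there without. On TPM the 4 SLC7A2-line libraries lay above the 4 SLC7A1-line libraries, but the share of all entries that do so on TPM was not computed. This order is therefore not read as a trait of DOT1L. On CPM the lines overlapped, since the SLC7A2-line dox library numbered 2 had 120.3 CPM and the SLC7A1-line dox library numbered 2 had 121.5 CPM. The edgeR log2 fold change of the SLC7A2 over the SLC7A1 line was 0.20 ± 0.09, with an unadjusted p of 0.0584 and an adjusted p of 0.407. DOT1L overlaps AP3D1 and PLEKHJ1 at its ends in the annotation, so how many of its reads belong to them is uncertain.

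BMI1 varied most among the well-expressed members. BMI1 had 47.86 and 119.73 TPM in the SLC7A2 line with dox, 43.56 and 58.42 TPM without, 35.48 and 43.90 TPM in the SLC7A1 line under dox, and 20.02 and 61.98 TPM there without. In the SLC7A2 line with dox and in the SLC7A1 line without, 1 library was far above the other, and the libraries of the lines and of the treatments overlapped. The means were 67.4 ± 35.4 TPM in the SLC7A2 line and 40.3 ± 17.5 TPM in the SLC7A1 line (SD, n = 4 each), and the edgeR log2 fold change was 0.55 ± 0.36 with an adjusted p of 0.524. It was 0.21 ± 0.32 without the SLC7A2-line dox library numbered 2 and 0.99 ± 0.28 without the SLC7A1-line no-dox library numbered 2, the lowest and highest with any 1 library left out.

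BMI1 shares its exons with COMMD3-BMI1, a read-through gene that starts in the neighbouring COMMD3 and was listed as a separate entry. COMMD3-BMI1 had 24.43 and 20.13 TPM in the SLC7A2 line with dox, 23.85 and 33.13 TPM without, 14.93 and 18.40 TPM in the SLC7A1 line under dox, and 20.73 and 22.37 TPM there without. It took 32.7% and 13.8% of the counts of both entries in the SLC7A2 line with dox, 34.3% and 35.1% without, 28.6% and 28.5% in the SLC7A1 line under dox, and 49.6% and 25.6% there without. The lowest share stood in the library with the highest BMI1 level and the highest share in the library with the lowest. BMI1 counts are part of the total behind the share, so more of them lower the share by construction. How RSEM divided shared reads cannot be seen from the counts, so the separate levels are uncertain. Summed over both entries, the counts were 3363 and 6537 in the SLC7A2 line with dox, 3272 and 4394 without, 2498 and 3238 in the SLC7A1 line under dox, and 2097 and 4269 there without. The summed counts kept the same highest and lowest library as BMI1 alone. Their edgeR log2 fold change of the SLC7A2 over the SLC7A1 line was 0.48 ± 0.25 with an adjusted p of 0.442, in a fit chosen after seeing the data. COMMD3, the upstream neighbour, had 161.02 and 166.44 TPM in the SLC7A2 line with dox, 162.05 and 136.26 TPM without, 192.23 and 168.57 TPM in the SLC7A1 line under dox, and 172.58 and 167.16 TPM there without.

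**Figure D3:**
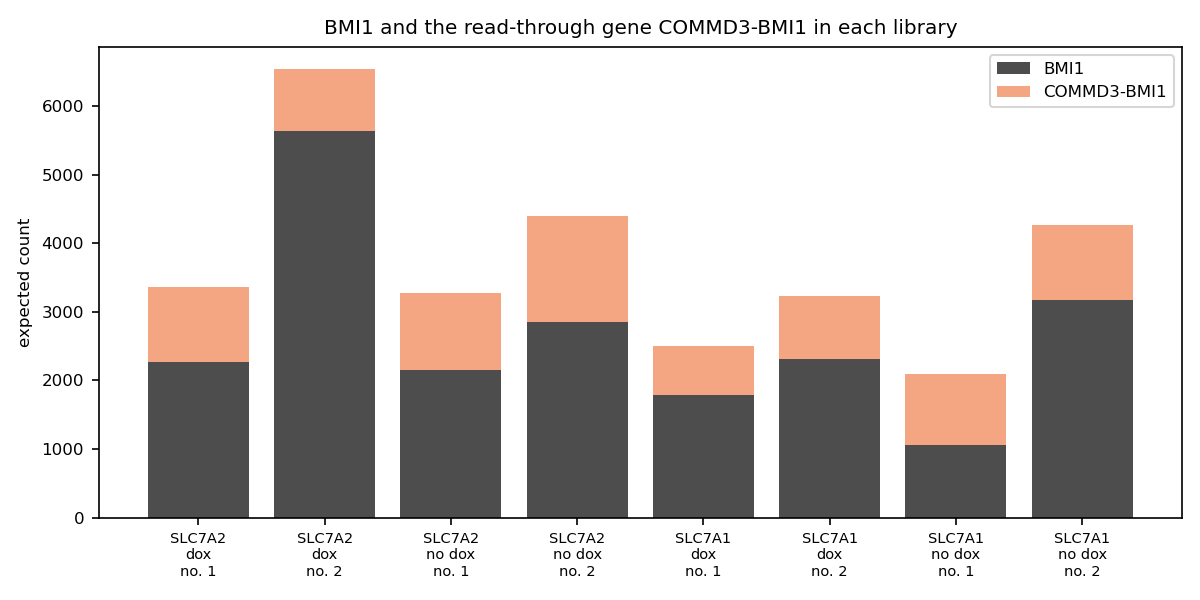
Expected counts of BMI1 (grey) and of the read-through gene COMMD3-BMI1 (orange), stacked, in each of the 8 libraries. The sum is highest, at 6537, in the SLC7A2-line dox library numbered 2 and lowest, at 2097, in the SLC7A1-line no-dox library numbered 1.

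The SLC7A2 line was set against the SLC7A1 line over 4 libraries each, with dox as a covariate. Of the 10 genes 0 passed an adjusted p of 0.05 in edgeR, where 0.0% of the 17503 entries were called and 2242 had an unadjusted p under 0.05. DESeq2 called 349 entries (1.99%) and 0 of the 10, with MEIS1 just over the threshold (0.56 ± 0.17, DESeq2 adjusted p 0.0553). The fitted log2 fold changes were above 0 for 9 genes and below 0 for HOXA7 alone, with a median of 0.09, beside a median of 0.00 over all entries. HOXA7 had -0.42 ± 0.31 with an adjusted p of 0.569. The remaining 6 genes, HOXA5, HOXA9, HOXA10, PBX3, PICALM and MLLT10, had log2 fold changes of 0.01 to 0.11, with SE of 0.12 to 0.52 and adjusted p of 0.727 to 0.989. The sign for HOXA5, HOXA9, HOXA10, PBX3, PICALM and MLLT10 turned when certain single libraries were left out.

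Dox was set against no dox in each line and across both. In the SLC7A2 line edgeR called 0 of the 10 genes and 0.0% of all entries, with 224 entries at an unadjusted p under 0.05 and 10 (0.0571%) called by DESeq2. In the SLC7A1 line edgeR called 0 of the 10 and 0.0% of all entries, with 222 at an unadjusted p under 0.05 and 9 (0.0514%) called by DESeq2. For the difference between the 2 dox effects edgeR also called 0 of the 10 and 0.0% of all entries, with 222 at an unadjusted p under 0.05 and 20 (0.114%) called by DESeq2. None of the entries that DESeq2 called in these comparisons was among the 10 genes. The median log2 fold change of the 10 with dox was -0.02 in the SLC7A2 line (4 above 0, 6 below) and 0.09 in the SLC7A1 line (6 above 0, 4 below), beside medians of 0.01 and 0.00 over all entries.

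Across both lines, with 4 dox and 4 no-dox libraries, edgeR called 0 of the 10 genes and 0.0% of all entries, where 261 entries had an unadjusted p under 0.05 and DESeq2 called 1 (0.00571%), which was not one of the 10. The adjusted p was 1 for each of the 10 in edgeR. PICALM had a log2 fold change of 0.18 ± 0.13, and its CPM was higher with dox in 4 of 4 same-numbered pairs of libraries. On CPM 7.7% of all entries were higher with dox in all 4 pairs, and on TPM PICALM was higher in 3 of the 4. Without the SLC7A2-line dox library numbered 2 its log2 fold change was 0.07 ± 0.11. BMI1 had 0.29 ± 0.36 and PBX3 0.23 ± 0.17, each higher in 3 of 4 pairs on CPM. HOXA5 had -0.58 ± 0.52 and was lower in 3 of 4, with -0.29 ± 0.53 without the same library, and -0.95 ± 0.54 or -0.94 ± 0.44 without the SLC7A1-line dox library numbered 1 or the SLC7A1-line no-dox library numbered 2. HOXA10 was lower with dox in 3 pairs and level in the other (0.00), while 7.11% of all entries were lower in all 4. The other genes had 0.20 ± 0.31 (HOXA7), -0.16 ± 0.19 (HOXA9), -0.05 ± 0.12 (HOXA10), 0.03 ± 0.16 (MEIS1), 0.14 ± 0.21 (MLLT10) and -0.01 ± 0.09 (DOT1L). No gene of the 10 had dox and no-dox libraries that did not overlap on CPM, against 0.491% of all entries with dox higher and 0.4% with dox lower. The SE was thus 0.09 to 0.16 on the log2 scale for HOXA10, MEIS1 and DOT1L and 0.52 for HOXA5.

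**Figure D4:**
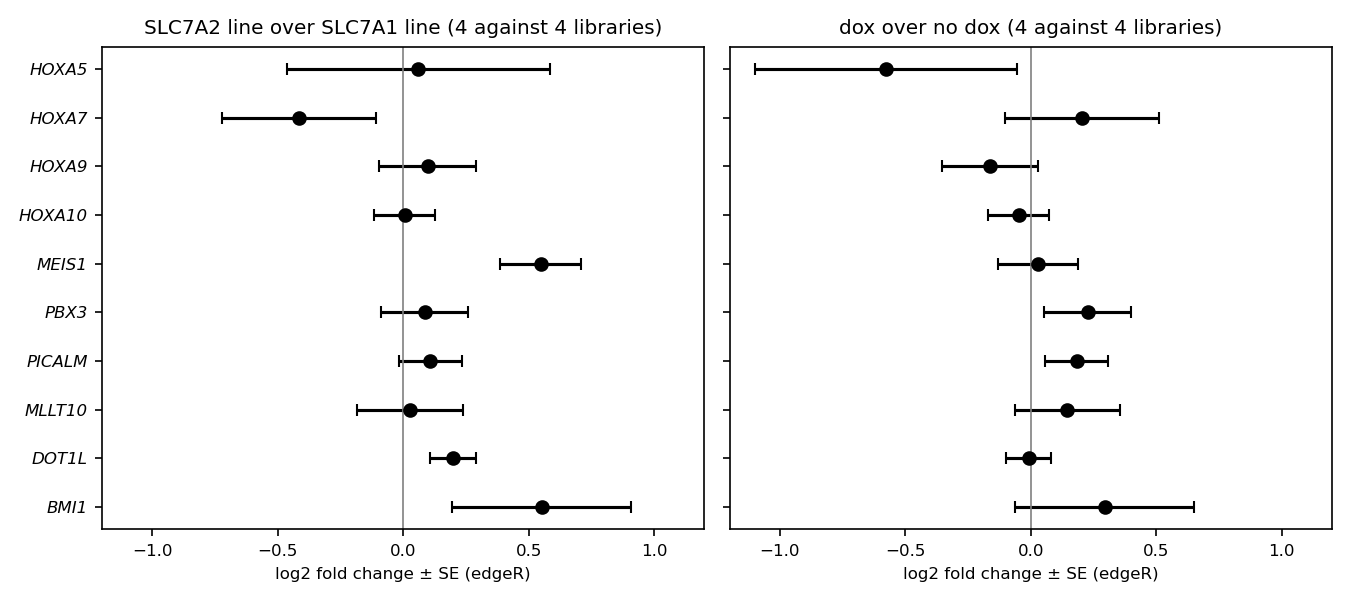
Log2 fold change ± SE from edgeR for each gene, for the SLC7A2 over the SLC7A1 line (left) and for dox over no dox across both lines (right), each with 4 against 4 libraries. MEIS1 at 0.55 ± 0.16 is the value farthest from 0 relative to its SE, and on the right every gene has an adjusted p of 1.

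The spread among the 8 libraries differed widely between the genes. The SD of log2 CPM was 0.14 for DOT1L and 0.15 for HOXA10, against 0.64 for BMI1 and 0.73 for HOXA5, and the median over 11567 symbol genes was 0.24. Of these symbol genes 18.4% had a lower SD than DOT1L, 22.8% than HOXA10, 76.8% than MEIS1, 92.7% than BMI1 and 94.5% than HOXA5. Counting error alone would give a coefficient of variation of 1.94% for BMI1 and 19.1% for HOXA5, while the observed ones were 46.2% and 47.2%. For HOXA10 they were 2.80% by counting and 10.6% observed, and for MEIS1 2.41% and 24.6%.

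Part of this spread went with the library number. On log2 CPM, number 2 minus number 1 was 1.13 and 0.31 for BMI1 in the SLC7A2 line with and without dox, and 0.38 and 1.50 in the SLC7A1-line groups in the same order. For MEIS1 the same differences were 0.31 and 0.32 in the SLC7A2 line and 0.25 and 0.66 in the SLC7A1 line. HOXA5 went the other way, with -0.95 and -0.16 in the SLC7A2 line and -1.04 and -1.67 in the SLC7A1 line. The library numbered 2 was higher in all 4 groups for HOXA10, MEIS1, PICALM and BMI1, 4 of 10 genes, against 14.7% of all entries. It was lower in all 4 groups for HOXA5 and HOXA7, 2 of 10, also against 14.7% of all entries. The labels do not say what libraries of the same number share.

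**Figure D5:**
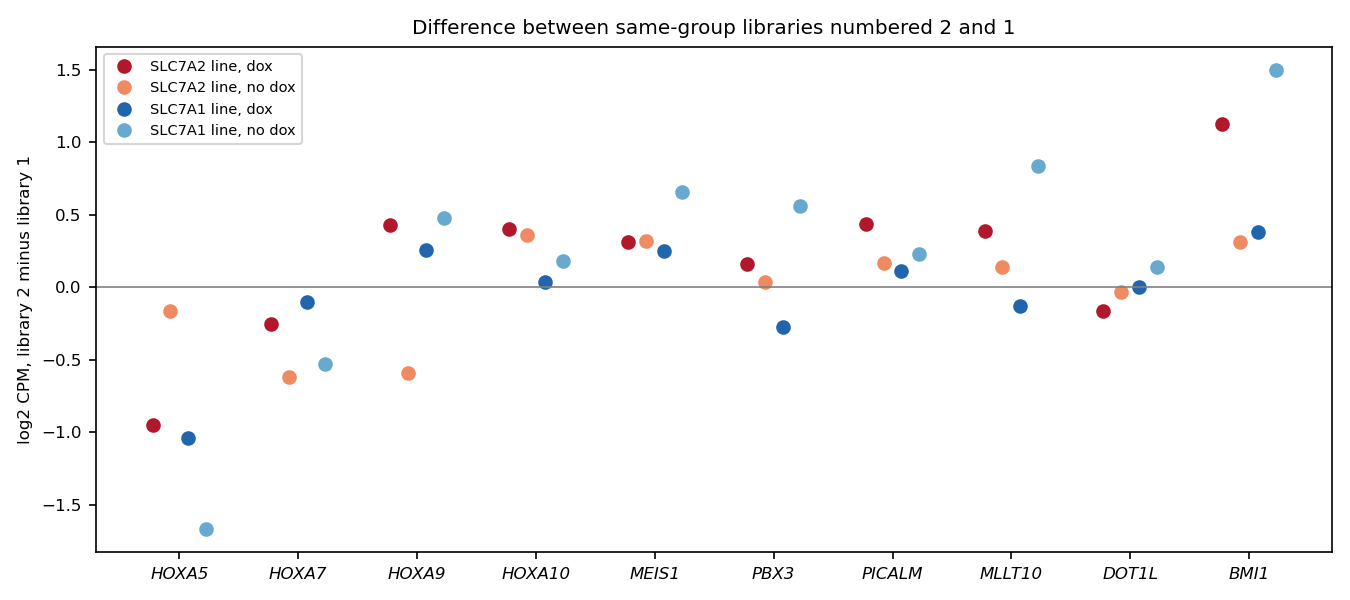
Difference in log2 CPM between the libraries numbered 2 and 1 of the same group, for each gene and group. BMI1 differs by 0.31 to 1.50 and HOXA5 by -1.67 to -0.16.

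Pairs of these genes were compared by the Pearson correlation of their log2 CPM over the 8 libraries, which share the 4 groups and the library numbers. BMI1 followed PICALM with r = 0.88 and MEIS1 with r = 0.85, and MLLT10 followed PBX3 with r = 0.89. PICALM and MLLT10 had r = 0.71. MEIS1 had r = 0.35 with HOXA9 and 0.42 with HOXA10, and HOXA9 had r = 0.15 with HOXA10. HOXA5 and HOXA7 each had a negative r with HOXA9, HOXA10, MEIS1, PICALM and MLLT10, among them r = -0.75 for HOXA5 and PICALM, -0.67 for HOXA5 and MLLT10, -0.66 for HOXA7 and MEIS1 and -0.56 for HOXA7 and HOXA10. Among 8527 symbol genes whose mean log2 CPM reached 3, those most like MEIS1 were TARDBP (0.985), RAB29 (0.984) and ZC3H15 (0.984). The genes most like HOXA9 were MGAT4A (0.911), BRCA1 (0.898) and PIGN (0.886), and those most like HOXA10 were SMCR8 (0.955), TRIM13 (0.953) and BPTF (0.952). The genes most like PICALM were FAM20B (0.982), PWWP2A (0.981) and GINS1 (0.979). For MLLT10, among 8528 genes, they were DMXL2 (0.956), ZBTB44 (0.955) and SPTBN1 (0.942). The named genes were picked as the highest r of all genes ranked over only 8 libraries, so high values follow in part from the selection. Shared regulation was not tested.

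Other genes of these pathways were taken from fixed lists, and edgeR called 0 of them in any of the 5 comparisons. Of the other 7 HOXA genes 6 were tested, and HOXA11 had a log2 fold change of -0.04 ± 0.10 and HOXA13 one of 0.25 ± 0.21 for the SLC7A2 over the SLC7A1 line. Their median was 0.01 for the lines (3 above 0, 3 below) and 0.12 with dox across both lines (4 above 0, 2 below). Of 28 HOXB, HOXC and HOXD genes 6 were tested, with medians of 0.01 for the lines and -0.01 with dox. Of 9 further TALE cofactors 6 were tested, with medians of -0.07 for the lines and 0.04 with dox. Among these, PBX2 (29.21 to 33.87 TPM) exceeded PBX3 in every library, and TGIF2 (20.09 to 26.14 TPM) and TGIF1 (10.22 to 15.59 TPM) followed.

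The 22 genes of the DOT1L, super elongation and KMT2A complexes, which carry or read the marks of active HOXA chromatin, were all tested. Their median was 0.01 for the lines (11 above 0, 11 below) and 0.00 with dox (11 above 0, 11 below). DPY30 (98.17 to 128.12 TPM), WDR5 (49.94 to 62.68 TPM) and ASH2L (31.92 to 42.77 TPM), all subunits of the KMT2A methyltransferase core, were the most abundant. The Polycomb list of 32 genes holds subunits and also CDKN2A and CDKN2B, which are targets. Its medians were 0.06 for the lines (19 above 0, 13 below) and 0.02 with dox (19 above 0, 13 below). RBBP7 (187.04 to 292.26 TPM), CDKN2A (170.36 to 217.64 TPM) and PHF19 (112.55 to 197.89 TPM) led the list. CDKN2A, a repression target of BMI1 in other cells, had a log2 fold change of -0.01 ± 0.10 for the lines. Its TPM was above that of BMI1 in every library, and whether BMI1 represses it in these cells was not tested.

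Of 25 clathrin endocytosis partners of PICALM 23 were tested, with medians of -0.02 for the lines (11 above 0, 12 below) and 0.02 with dox (16 above 0, 7 below). VAMP8 (683.51 to 838.41 TPM), a vesicle protein that PICALM sorts, AP2S1 (506.07 to 559.30 TPM), a subunit of the adaptor AP-2, and the clathrin light chain CLTA (404.61 to 477.44 TPM) were the most abundant. Of 24 genes reported as targets or partners of HOXA9 and MEIS1 23 were tested, with medians of 0.06 for the lines (15 above 0, 8 below) and -0.04 with dox (10 above 0, 13 below). CEBPA (234.69 to 338.66 TPM), SPI1 (139.29 to 173.97 TPM) and MYB (41.57 to 85.27 TPM), all transcription factors of myeloid cells or their progenitors, were the most abundant. For the SLC7A2 over the SLC7A1 line they had log2 fold changes of 0.03 ± 0.14, 0.02 ± 0.13 and 0.15 ± 0.22.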

How the data were processed

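Poly(A) RNA from 8 U937 samples was sequenced as paired reads of 150 bases. Each deposited file holds 1 library and lists, per gene, an expected count and the TPM, with FPKM and 2 gene lengths beside them per the file headers. The deposited FPKM was not used. The submitters' processing notes name the build hg38 and the tools RSEM 1.3.1, Bowtie2 2.3.4.3, HISAT and DESeq2 1.4.5 without their roles. Whether counting used strand is not stated there. Genes absent from a file were set to 0.

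The 10 genes and the lists were chosen with earlier results of these data known. The deposited expected counts were rounded, and filterByExpr (minimum count 10, minimum total 15) left 17503 entries. After TMM scaling, edgeR 4.0.16 (R 4.3.3) gave quasi-likelihood F tests, adjusted by Benjamini and Hochberg over all entries, with a threshold of 0.05. The 4 group means gave the dox effect in each line and their difference, and an additive fit of line and dox gave the 2 pooled comparisons. An SE was derived as the size of the log2 fold change divided by the root of its F value. CPM is TMM-scaled, with a prior count of 2 on the log2 scale. The CPM of the constructs, of SLC19A1 and of the count floor is instead relative to the library total. Levels use the authors' TPM. A floor of 3 counts was 0.163 to 0.173 CPM and covers counting error only. The fits were tested on simulated data with independent libraries and the same spread setting for all genes. The simulation held no effect of the library number, so it does not show how the fits behave with one.

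Alternatives were DESeq2 1.42.0, limma 3.58.1 on log2(TPM + 1), other scalings, no filter, a replicate block and left-out libraries, among them both SLC7A2-line libraries numbered 2, which stood apart in an earlier analysis of these data. All 10 genes are named, and of each list the genes called or, with none, up to 3 with the highest mean TPM. The likeness of patterns was ranked over symbol genes whose mean log2 CPM reached 3, naming 3 per gene. Sequences and coordinates are from RefSeq on GRCh38.p14, and transcript lengths from GENCODE.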

Additional observations from a re-analysis of the deposited data

How the results depend on the processing

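None of the 10 genes was called by DESeq2, by limma on log2(TPM + 1), under other scalings, without the filter or with libraries left out. Over all entries, where edgeR called 0 in each comparison, DESeq2 called 349 for the SLC7A2 against the SLC7A1 line, 10 for dox in the SLC7A2 line, 9 for dox in the SLC7A1 line, 20 for the difference of dox effects and 1 for dox across both lines. Without the filter edgeR called 3 for the lines, 2 for dox in the SLC7A1 line and 2 for dox across both lines. Limma called 2 for dox in each line and 3 for their difference. Leaving out single libraries gave 0 to 1 calls for the lines (1 without the SLC7A2-line dox library numbered 1) and 0 to 1 for dox in the SLC7A2 line (1 without either of its libraries numbered 2, with or without dox). Without both SLC7A2-line libraries numbered 2 there was 1 call for the lines and 1 for dox across both. The cause of these differences was not tested.

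Libraries of a line that share a number deviated together (r = 0.312 in the SLC7A2 line and 0.197 in the SLC7A1 line over 17503 entries, and 0.771 and 0.698 over the 5355 whose log2 CPM averaged 5 or more), and those of different lines did less (-0.024 to 0.15 over all, and 0.036 to 0.424 over the 5355). The labels do not say what a number marks, and with 2 numbers per group it was not taken as pairing. The replicate block differed by comparison. For dox each line had its own number effect, while for the lines a single number effect was shared by both lines. Blocked calls for the lines rest on that sharing, although libraries of different lines deviated together less. With the replicate block edgeR called 256 (1.46%) for the lines, 1 and 2 for dox in the SLC7A2 and SLC7A1 lines, 0 for their difference and 3 for dox across both lines. MEIS1 was the only 1 of the 10 among them, for the lines (0.56 ± 0.09, adjusted p 0.0391, over all settings 1.35e-06 to 0.77). DESeq2 with the block, chosen after seeing the data, called 1480 (8.46%), 29, 45, 21 and 106 in the same order, among them MEIS1 (1.35e-06) and BMI1 (0.59 ± 0.18, adjusted p 0.0192) for the lines.

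Small log2 fold changes turned sign. For the SLC7A2 over the SLC7A1 line HOXA10 had -0.01 with the block, and without both SLC7A2-line libraries numbered 2 HOXA10 had -0.20, PICALM -0.06 and MLLT10 -0.11. With single libraries left out the range was -0.31 to 0.43 for HOXA5, -0.02 to 0.22 for HOXA9, -0.08 to 0.08 for HOXA10, -0.01 to 0.22 for PBX3, -0.01 to 0.17 for PICALM and -0.12 to 0.21 for MLLT10. For dox across both lines DOT1L had 0.01 scaled by library totals, 0.04 in limma and 0.05 without both libraries. With single libraries left out the range was -0.06 to 0.05 for DOT1L, -0.14 to 0.02 for HOXA10, -0.10 to 0.16 for MEIS1, -0.01 to 0.33 for MLLT10 and -0.04 to 0.73 for BMI1. With dox across both lines, the range was -0.95 to -0.29 for HOXA5, 0.01 to 0.43 for HOXA7, 0.13 to 0.36 for PBX3 and 0.07 to 0.25 for PICALM.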

Other observations

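Of the listed genes beside the 10, FCGR1A and LYZ, both monocyte genes, were called between the lines by DESeq2 and by edgeR with the replicate block. These 2 fits called 1.99% and 1.46% of all 17503 entries. FCGR1A, the high-affinity Fc receptor, had a DESeq2 log2 fold change of -1.13 ± 0.26 (adjusted p 0.00378), and LYZ, which encodes lysozyme, had 0.45 ± 0.08 (adjusted p 4.3e-05) for the SLC7A2 over the SLC7A1 line. DESeq2 also called CD68 (-0.36 ± 0.10, adjusted p 0.0318) and COL1A2 (3.15 ± 0.87, adjusted p 0.0243), a fibroblast marker with 3.11 TPM in the SLC7A2-line no-dox library numbered 2 and 0.03 to 0.30 TPM in the other 7. DESeq2 with the block, chosen after seeing the data, called 8.46% of all entries for the lines, so calls among the listed genes are no trait of these lists. That fit called FCGR1A, LYZ and CD68 again. It also called EZH2 (0.35 ± 0.09) and CLTC (0.47 ± 0.12) as higher in the SLC7A2 line, and BCOR (-0.97 ± 0.23), CBX7 (-0.50 ± 0.17), TGIF2 (-0.29 ± 0.10), COMMD3 (-0.30 ± 0.08), CD4 (-0.46 ± 0.09) and CD79A (-0.44 ± 0.15) as lower, with adjusted p of 5.96e-06 to 0.0366. In the same fit ID2 (0.53 ± 0.14, adjusted p 0.0302) and LYZ (-0.27 ± 0.06, adjusted p 0.00207) were called for dox across both lines, beside 0.606% of all entries. COL1A1 (-2.51 ± 0.48, adjusted p 0.000573) was called for dox in the SLC7A2 line, beside 0.166% of all entries. These genes were chosen after their values were seen, and edgeR without the block called none of them.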
